A study of Mus musculus with 4 samples.

Results

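The 10 genes described here encode proteins that coat, crosslink or pull on actin filaments in the cells of mouse limb vessels. They are Cald1 (caldesmon), the tropomyosin genes Tpm1, Tpm2 and Tpm4, the myosin light chain genes Myl9, Myl6 and Myl12a, the transgelin gene Tagln2, and the calponin genes Cnn2 and Cnn3. They were picked by symbol, and each of the 10 was found among the 30406 gene identifiers that the count matrices of the series share. The question was which of these isoforms the vessel stroma holds, which of them it shares with leukocytes, and how their levels compare between TNF-Tg and WT vessels.

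Muscle and nonmuscle cells build the same machine from different members of the same gene families. Myosin II pulls on actin filaments once its regulatory light chain is phosphorylated, and that chain is made from Myl9 in smooth muscle and from Myl12a or Myl12b in other cells, while Myl6 supplies the essential light chain that stiffens the lever arm. Tropomyosins lie along the filament and set which proteins can reach it, and caldesmon and calponin bind the filament and hold back myosin. Differentiated smooth muscle is known for Acta2, Myh11, Tagln, Cnn1, Tpm1 and Tpm2, whereas Tpm3, Tpm4, Tagln2, Cnn2 and Cnn3 also serve cells that crawl, divide or engulf. Cald1 and Tpm1 each give a muscle and a nonmuscle form by splicing, and counts at the 3′ end of a transcript cannot tell those forms apart.

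Popliteal lymphatic vessels and the neighbouring saphenous vein were pooled from 3 mice per library, digested, sorted and profiled by droplet single-cell RNA sequencing. Libraries tdT1 and tdT2 held tdT+ cells of male and female Cspg4-Cre;Ai9-tdTomato mice over 8 months old. In these mice the Cspg4 promoter, known from pericytes and smooth muscle, drives Cre and so the red reporter. Per the study, the reporter marks cells that expressed Cspg4 at some time, whether or not they still do. The WT library came from male C57BL6 mice of 9 months and the TNF-Tg library from male mice of 9 months that carry a human TNF transgene, both sorted on scatter without a reporter. Per the study's methods, the reporter, WT and TNF-Tg mice shared the C57BL/6J background. Each of the 4 libraries was a separate pool and a separate experiment, so WT and TNF-Tg had 1 library each, and condition and pool cannot be told apart.

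The libraries held 454 to 5488 cells and 2357031 to 68773605 UMIs, which are counted transcript molecules, with a median of 4932.5 to 12660 UMIs per cell. Library tdT1 stood apart, since 516 of its 1504 cells had more than 10% mitochondrial UMIs, and it was counted with another Cell Ranger version than the rest. Cells were classed by marker genes that exclude the 10 genes: stroma (1075, 245, 2227 and 1114 cells of tdT1, tdT2, WT and TNF-Tg) and leukocytes (142, 181, 2893 and 2101 cells). Within the stroma, cells richer in Myoc, Pi16, Fndc1, Dpp4, Adamts5 and Efhd1 were called LMC-type, and cells richer in Cxcl14, Mgp, Gdf10, Gas6, Sparcl1 and Bgn VSMC-type, after the lymphatic and venous muscle cells that the study assigned to such profiles. Of smooth muscle markers, Acta2, Myh11, Tagln and Cnn1 were scarce in LMC-type stroma. Acta2 was at most 0.876 CPM (UMIs of a gene over those of the class times 1000000) in any library. Myh11 was at most 0.122, Tagln 0.729 and Cnn1 0.045 CPM. The muscle gene Des was not scarce there, at 40.35, 9.95, 36.7 and 29.9 CPM in tdT1, tdT2, WT and TNF-Tg. In VSMC-type stroma of tdT1, Acta2 stood at 188, Tagln at 66.4, Myh11 at 60.8 and Cnn1 at 22.6 CPM. Nearly all of this came from 4 cells described further on. In VSMC-type stroma of the other libraries none of these 4 genes passed 4.51 CPM. For the names the study also drew on reporter sorting, on Pdgfrb reporter mice, and on Cald1, Tpm1, Pdgfrb and muscle-related transcription factors. Beside the scarce Acta2 RNA it reported robust smooth muscle actin protein in these vessels and limited signal in Acta2 reporter mice. It did not exclude myofibroblast contaminants. The names are kept here as labels of the marker lists alone. Levels come from a 3′ assay that counts 1 tag per molecule, so they do not scale with transcript length. Other differences between genes, such as in mapping, were not measured, so levels of different genes can be compared only roughly.

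5 of the genes were higher in the stroma than in the pooled leukocytes without overlap of their ranges. Cald1 was the clearest of them. The share of all genes without such overlap was not counted. In the test given below, 58.5% of all genes tested differed between stroma and leukocytes. Endothelial cells were not part of this comparison. In the 36 endothelial cells of tdT1, Cnn3 stood at 351 CPM and Tpm1 at 117, both above the stroma of that library. Cald1 stood at 97.2, Myl9 at 11.05 and Tpm2 at 2.21 CPM in them, below that stroma, the last 2 from 5 UMIs and 1 UMI. Without 4 cells described further on, that stroma stood at 8.64 CPM for Myl9 and 2.01 for Tpm2. The endothelial values still include 1 cell of the same kind, so they cannot be ranked against that stroma without such cells. Cald1 (chr6:34598500-34775473 in GRCm38) stood at 298, 258, 286 and 215 CPM in the stroma of tdT1, tdT2, WT and TNF-Tg, and at 0.709, 0, 2.00 and 0.411 in the leukocytes. No library came near overlap, and the leukocyte level was at most 0.699% of the stromal level, beside 0.12% to 0.716% over the libraries for the median of 9 stromal reference genes such as Mmp2 and Serpinf1. Taking a floor of 3 UMIs for the tdT2 leukocytes, which held 0, the stroma of that library was at least 77.3-fold higher. In cells thinned to 3000 UMIs each, Cald1 was seen in 45.8% to 57.7% of stromal cells and in at most 0.87% of leukocytes (66.9% to 87.7% and at most 1.76% before thinning). Cald1 overlaps Npn2 and other genes on the opposite strand, as Tpm4 does Gm26586 and Myl12a does Myom1, and where strand is not used their reads cannot be told apart.

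Myl9, the smooth muscle regulatory light chain (chr2:156775420-156781658), was nearly as exclusive to stroma over leukocytes, at a far lower level. It stood at 12.4, 23.1, 4.59 and 17.4 CPM in the stroma of tdT1, tdT2, WT and TNF-Tg. In leukocytes it gave 3 UMIs in WT and 0 in the other libraries, so that the stromal level was at least 5.80-fold higher in tdT1, 6.93-fold in tdT2 and 127-fold in TNF-Tg, taking a floor of 3 UMIs per library. The tdT1 fold includes 4 cells, described further on, that held 30.3% of its stromal Myl9 UMIs. Without them that stroma stood at 8.64 CPM, beside a leukocyte floor of 2.13. WT had the lowest stromal level and tdT2 the highest.

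Cnn3, the acidic calponin of nonmuscle cells (chr3:121426497-121458207), stood at 78.1, 59.0, 66.2 and 69.6 CPM in stroma and at 23.4, 4.46, 5.50 and 3.29 in leukocytes. The ranges did not overlap, and the leukocyte level in tdT1 stood above the other 3. Tpm1 (chr9:67022590-67049406) was shared in part: 54.9, 76.2, 54.9 and 83.8 CPM in stroma against 29.1, 27.8, 30.3 and 26.1 in leukocytes, which is 31.2% to 55.2% of the stromal level and far above the stromal reference genes. Tpm2 (chr4:43514711-43523765), a tropomyosin of muscle, was scarce everywhere, with 7.13, 5.97, 2.52 and 7.28 CPM in stroma and 0, 0, 0.412 and 1.78 in leukocytes. The ranges of stroma and pooled leukocytes did not overlap. However, 4 cells of tdT1, described further on, held 71.9% of its stromal Tpm2 UMIs, and without them that library stood at 2.01. Single leukocyte classes came closer to stroma or passed it. T cells held 0, 50.4, 53.2 and 53.3 CPM of Tpm1 in tdT1, tdT2, WT and TNF-Tg. Dendritic cells held 39.2, 48.4 and 32.7 in tdT1, WT and TNF-Tg. Of Tpm2, T cells held 0, 0, 3.04 and 12.9, from 2 UMIs in WT and 7 in TNF-Tg. Dendritic cells held 0, 0.722 and 6.72, from 2 UMIs in WT and 15 in TNF-Tg.

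3 of the genes were shared at similar levels. Tpm4 (chr8:72134975-72153142), a tropomyosin of short filaments at the cell cortex, stood at 115, 134, 148 and 226 CPM in stroma and at 148, 197, 188 and 241 in leukocytes, with overlapping ranges and the leukocytes higher within every library. Myl6 (chr10:128490860-128494145), the essential light chain, was the most abundant gene of the set, at 599.6, 728, 779.7 and 1371 in stroma and 1076, 1239, 986 and 1348 in leukocytes. Leukocytes were higher in 3 of the 4 libraries and TNF-Tg was the exception.

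Myl12a (chr17:70993656-71002878), the nonmuscle regulatory light chain, stood at 212, 251, 242 and 379 CPM in stroma and 184, 217, 185 and 282 in leukocytes, so each library had the stroma higher and the ranges overlapped. Its near-identical neighbour Myl12b ran the other way, with 162, 239, 199 and 255 in stroma and 279, 431, 244 and 528 in leukocytes. Short 3′ reads may be split between that pair in part by mapping, so the level of each alone is uncertain.

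Cnn2 and Tagln2 were the leukocyte genes of the set. Cnn2 (chr10:79988584-79996062), a calponin known from macrophages and other motile cells, stood at 15.5, 8.22, 16.3 and 30.7 CPM in stroma and at 209, 154, 117 and 127 in leukocytes. Tagln2 (chr1:172500047-172507380), known from the T-cell synapse, stood at 187, 205, 228 and 307 in stroma and at 558, 660, 440 and 593 in leukocytes. Neither gene had overlapping ranges, and Tagln2 was above Tpm1 in the stroma of every library, while stromal Cnn2 was below Cnn3 in every library. At 3000 UMIs per cell, Cnn2 was seen in 2.13% to 6.93% of stromal cells and 27.2% to 41.7% of leukocytes (4.49% to 22.5% and 41.4% to 62.4% before thinning). Cnn3 had the reverse, with 18.1% to 18.7% and 0.682% to 6.09% (24.9% to 53.2% and 2.21% to 14.1% before thinning). Thinning left out 57 to 337 stromal cells and 27 to 306 leukocytes per library.

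**Figure D1:**
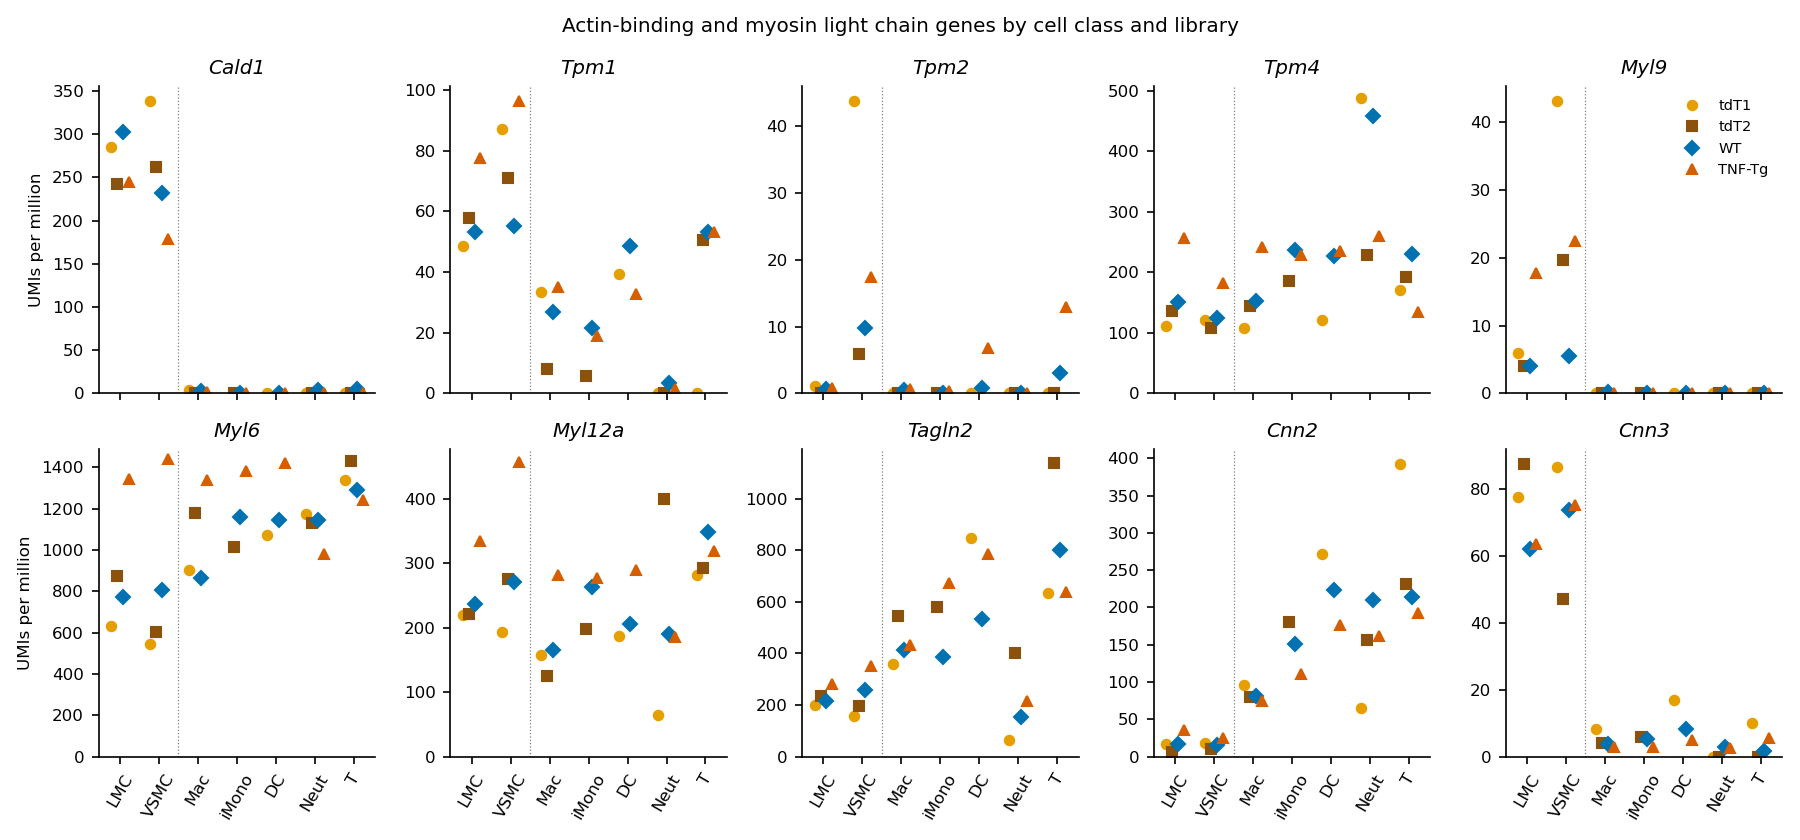
Levels of the 10 genes in CPM (vertical axis, linear and from 0, scaled for each gene) in 7 cell classes (horizontal axis), with 1 point for each library and the dotted line between stroma and leukocytes. Cald1, Cnn3 and Myl9 are seen in the stroma on the left of the line, Cnn2 and Tagln2 are higher on the right except for neutrophils in Tagln2, and the TNF-Tg triangle is the highest stromal point for Tpm4, Myl6 and Myl12a.

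The sums of stroma and leukocytes were tested across the 4 libraries with edgeR's quasi-likelihood test, each library as a block, and p-values adjusted over 13824 genes. At an adjusted p under 0.05, 31.8% of all genes tested were higher in stroma and 26.6% were lower, 58.5% in all, and of the 10 genes 6 were higher and 2 lower. The log2 fold change was 8.08 for Cald1 (SE 0.41, adjusted p = 1.39e-06), 7.38 for Myl9 (SE 0.66, adjusted p = 3.00e-05), 3.51 for Cnn3 (SE 0.41, adjusted p = 0.00016), 2.76 for Tpm2 (SE 0.50, adjusted p = 0.0018) and 1.35 for Tpm1 (SE 0.20, adjusted p = 0.00055). The fold of Myl9 depends on the prior count, since 3 of its 4 leukocyte sums were 0. Cnn2 was lower by a log2 fold change of -2.95 (SE 0.33, adjusted p = 0.000108) and Tagln2 by -1.16 (SE 0.18, adjusted p = 0.000735). Tpm4 at -0.21 (adjusted p = 0.246) and Myl6 at -0.35 (adjusted p = 0.130) did not pass.

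Myl12a passed at a log2 fold change of 0.44 (SE 0.14, adjusted p = 0.0235), but that call was not firm: it was lost without the library block (adjusted p = 0.277), with library totals as the scaling (0.0869) and without any 1 of the libraries (0.0531 to 0.315). The relatives outside the set were lower in stroma, Tpm3 by a log2 fold change of -1.54 (adjusted p = 7.57e-05) and Myl12b by -0.61 (adjusted p = 0.0103). Without TNF-Tg, Myl6 also passed, at -0.66 (adjusted p = 0.0488).

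**Figure D2:**
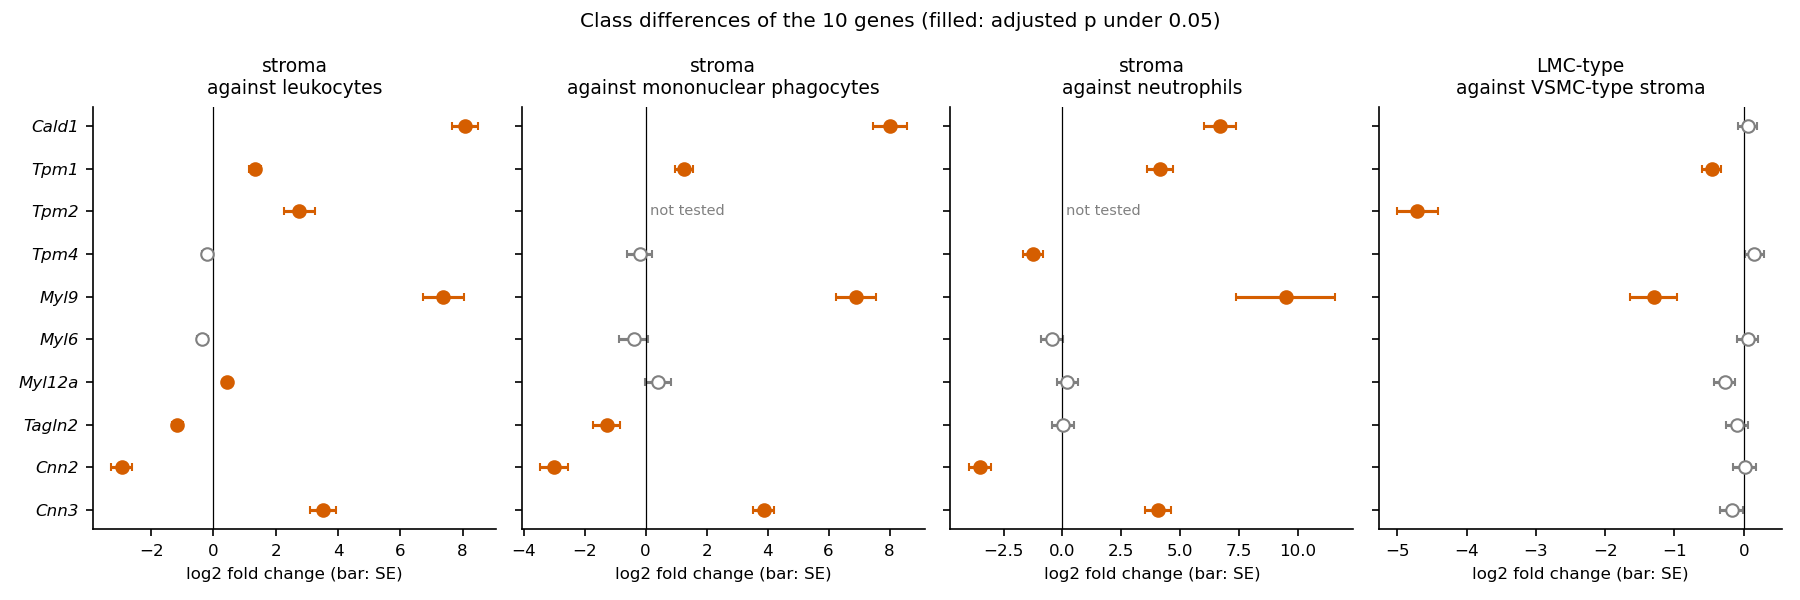
Log2 fold changes of the 10 genes (horizontal axis, bars are SE from the fitted model) in 4 class comparisons, filled where the adjusted p was under 0.05. Cald1, Myl9 and Cnn3 lie to the right, toward stroma, in each of the first 3 panels and Cnn2 to the left, and in the last panel Tpm2 lies far to the left, toward VSMC-type stroma.

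Splitting the leukocytes showed where the sharing lay. In a fit of stroma, mononuclear phagocytes and neutrophils over 10655 genes, 46.4% of all genes differed between stroma and phagocytes (23.4% higher in stroma, 22.9% lower) and 65.2% between stroma and neutrophils (42.1% higher, 23.0% lower). Of those calls 50.5% and 64.7% were higher in stroma, and with RLE scaling 65.7% and 76.0%. Tpm2 was too low to be tested there. Of the 9 others, 4 were higher in stroma than in phagocytes (Cald1, Myl9, Cnn3 and Tpm1) and 2 were lower (Cnn2 at a log2 fold change of -3.00 and Tagln2 at -1.27, the latter with adjusted p = 0.0195, which became 0.0636 without TNF-Tg and 0.0760 without the library block). The same 4 genes were higher in stroma than in neutrophils, and Cnn2 (-3.51) and Tpm4 (-1.25, adjusted p = 0.0129, but 0.159 without WT) were lower.

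Tpm1 differed most in depth of sharing between leukocyte types: the log2 fold change of stroma was 1.27 (SE 0.30) over phagocytes and 4.14 (SE 0.55) over neutrophils. Neutrophils held 0, 0, 3.45 and 1.30 CPM of Tpm1 in tdT1, tdT2, WT and TNF-Tg, from 5 UMIs in WT and 1 in TNF-Tg. Tpm4 had its highest mean in the same cells, at 488.5, 228, 458.5 and 261, and the tdT1 value rested on 10 neutrophils. The difference between the leukocyte types itself was not tested. Acta2, the smooth muscle actin, was higher in neutrophils (32.6, 71.4, 81.5 and 29.97, from 1, 5, 118 and 23 UMIs) than in stroma (26.3, 0.747, 0.283 and 2.21), with a log2 fold change of stroma of -5.00 (adjusted p = 6.50e-06).

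The order of the mean levels over the libraries placed classes differently for each gene. The dendritic mean has no tdT2 library and the inflammatory monocyte mean no tdT1 library (n = 3), so those means rest on other libraries than the rest. For Cald1 it ran from LMC-type stroma (269 ± 29.8, SD, n = 4) and VSMC-type stroma (253 ± 66.8), whose ranges overlapped, to macrophages (1.89 ± 1.77) and the other leukocytes. For Cnn2 T cells (258) and dendritic cells (224) came first, neutrophils (148) and inflammatory monocytes (147) next, macrophages (82.9) below them, and both stromal classes last (18.6 and 17.5). For Tagln2 T cells (803), dendritic cells (722), inflammatory monocytes (547) and macrophages (437) stood above VSMC-type (239.9) and LMC-type stroma (233), with neutrophils (208) at the bottom. Among these 7 classes Myl6 spanned from 849 CPM in VSMC-type stroma to 1325 in T cells, and each neighbouring pair in that order overlapped.

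Within a gene family, shares of UMIs do not depend on how a library was scaled. Of the tropomyosin UMIs in stroma, Tpm1 took 16.3% ± 2.46 (SD over 4 libraries), Tpm2 1.37% ± 0.49, Tpm3 45.1% ± 6.40 and Tpm4 37.2% ± 6.095, against 3.57% ± 0.66, 0.063% ± 0.092, 72.5% ± 2.37 and 23.8% ± 2.46 in leukocytes. Stroma thus had larger shares of Tpm1, Tpm2 and Tpm4 than the pooled leukocytes in 4 of 4 libraries, and a smaller share of Tpm3. For Tpm4 this did not hold against neutrophils taken singly. Their share was 46.9%, 29.1%, 48.9% and 36.3% in tdT1, tdT2, WT and TNF-Tg, against 29.6%, 35.0%, 41.1% and 43.0% in stroma. The tdT1 and tdT2 shares of neutrophils rest on 32 and 55 tropomyosin UMIs. The calponins traded places: Cnn3 took 79.5% ± 7.60 in stroma and 4.98% ± 3.50 in leukocytes, and Cnn2 19.7% ± 7.93 and 95.02% ± 3.50. Of the regulatory light chains, Myl12a took 54.1% ± 3.84 in stroma and 37.8% ± 4.45 in leukocytes, and Myl9 2.85% ± 1.44 and 0.0051% ± 0.010. Tagln2 made up 98.7% of stromal transgelin UMIs and 99.9% of leukocyte ones. The exact paired permutation test over 4 libraries gave a two-sided p of 0.125 for each share other than those of Cnn1, Tagln and Tagln2, which is the smallest value it can give.

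**Figure D3:**
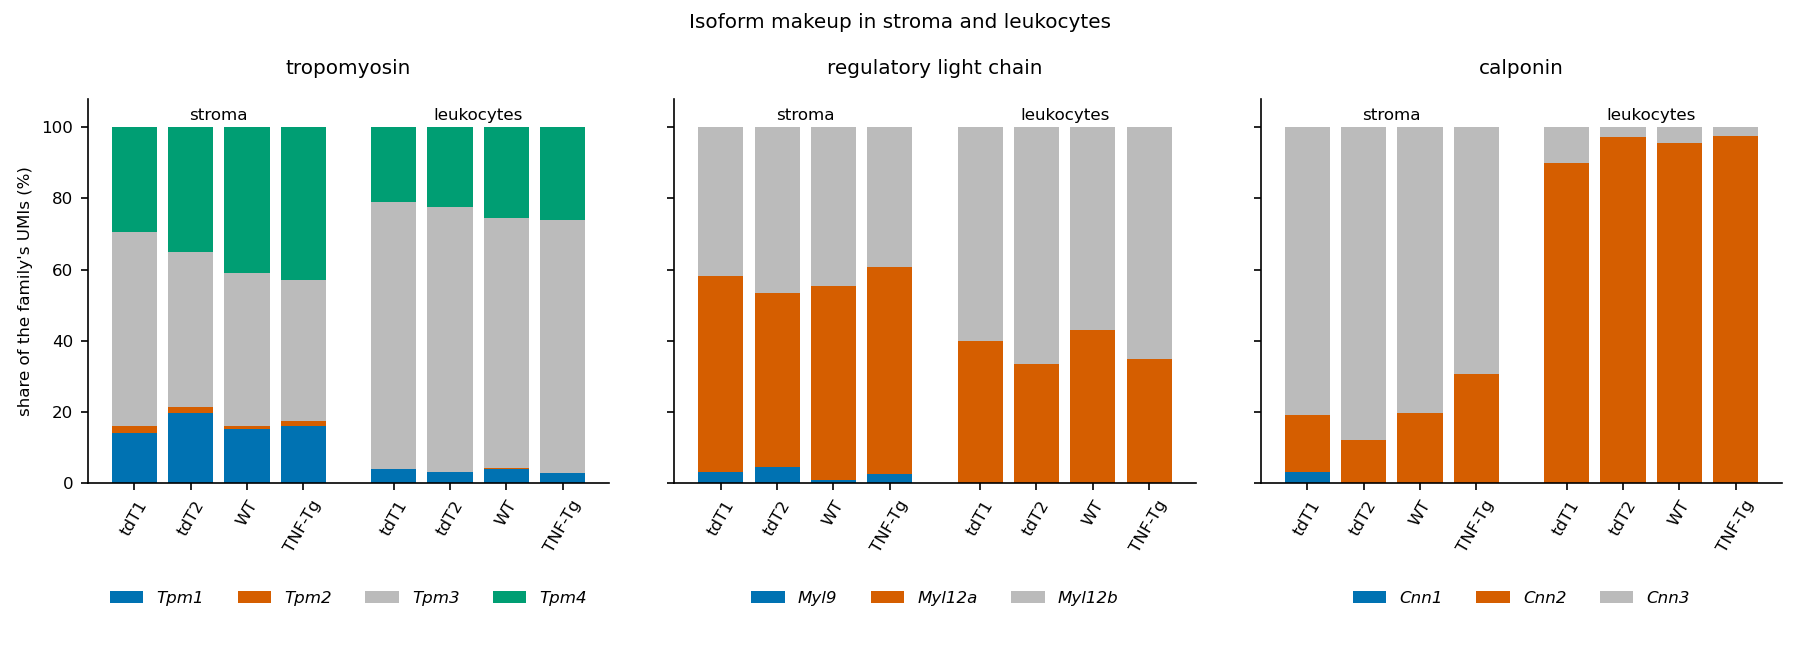
Makeup of 3 gene families by isoform, as the percent of the family's UMIs (vertical axis) in stroma and leukocytes of each library (bars). Cnn3 fills 69.4% to 87.8% of the calponin bar in stroma and Cnn2 at least 89.9% of it in leukocytes, while Tpm4 takes a larger part of the tropomyosin bar in stroma.

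The other genes of the pathway differed by list. Of 6 tested genes of the smooth muscle contractile list of 12, 3 were higher in stroma than in leukocytes and 1 lower, and the median log2 fold change of the list was 1.79 against 0.10 over all genes tested. Des, the muscle intermediate filament gene, was the highest of all lists (log2 fold change 7.67, adjusted p = 1.17e-06), followed by Myh10, a nonmuscle myosin heavy chain (4.57, adjusted p = 1.12e-05). Of 18 tested nonmuscle actin, myosin and crosslinker genes, 3 were higher and 12 lower (median -1.11), and of 6 leukocyte actin genes 5 were lower (median -4.31), led by Coro1a (-7.79) and Lcp1 (-7.51), which bundle or remodel actin in blood cells. Coro1a, Lcp1, Myh10 and Des were also the extremes against phagocytes and against neutrophils taken singly.

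Over 32 class and library sums, the gene whose log2 level ran most like that of Cald1 among 2821 genes was Fbln2 (Pearson r = 0.989), followed by Timp3 and Igfbp5, which are matrix genes of fibroblasts. Cnn2 ran most like Coro1a (r = 0.964), Cd52 and Rac2, and Cnn3 most like Il6st (r = 0.936), Hspb1 and Plpp3. Myl9 ran most like Sparcl1 (r = 0.936) and Cygb, Tpm2 like Cxcl14 (r = 0.699), Penk and Sparcl1, and Tpm1 like Egln1 (r = 0.895), Hnrnpr and Hmgn1. For Myl6 the closest was Ldha (r = 0.921, then Ubl5 and Pfn1), for Tagln2 Hnrnpf (r = 0.861, then Psmb8 and Sub1), for Tpm4 Fam104a (r = 0.713, then Pglyrp1 and Aldoa) and for Myl12a Mdh2 (r = 0.709, then Psmc2 and Dap). The sums share libraries, depth and cell lineage, and Cxcl14 and Sparcl1 served to class the VSMC-type cells, so these values describe the sums alone.

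The promoters of a gene held by stroma and of a gene held by leukocytes shared the same motif, and they are printed for that reason with the promoter of Myl6, the only other member to hold it. The CArG box, the site that serum response factor reads in muscle and in growth-stimulated cells, was searched on both strands in the 250 bases before each start in the RefSeq promoters (GRCm38.p6), where the 10 genes had 12 promoters. It was present in 1.47% of 32851 promoters. The capitals mark it, at 152 bases before the start in Myl9, 41 in the second promoter of Myl6 and 47 in Cnn2.
Myl9, chr2:156775214-156775463, plus strand: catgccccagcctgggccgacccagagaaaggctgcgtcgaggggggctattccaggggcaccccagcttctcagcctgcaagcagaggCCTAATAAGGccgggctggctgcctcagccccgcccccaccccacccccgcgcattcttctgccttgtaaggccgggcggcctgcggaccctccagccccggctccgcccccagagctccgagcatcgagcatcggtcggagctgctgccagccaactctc
Myl6, second promoter, chr10:128493010-128493259, minus strand: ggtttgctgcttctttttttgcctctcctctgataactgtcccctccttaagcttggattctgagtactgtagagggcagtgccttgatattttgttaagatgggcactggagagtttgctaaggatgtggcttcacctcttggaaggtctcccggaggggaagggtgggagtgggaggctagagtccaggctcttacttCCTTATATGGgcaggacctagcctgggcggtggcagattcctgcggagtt
Cnn2, chr10:79988350-79988599, plus strand: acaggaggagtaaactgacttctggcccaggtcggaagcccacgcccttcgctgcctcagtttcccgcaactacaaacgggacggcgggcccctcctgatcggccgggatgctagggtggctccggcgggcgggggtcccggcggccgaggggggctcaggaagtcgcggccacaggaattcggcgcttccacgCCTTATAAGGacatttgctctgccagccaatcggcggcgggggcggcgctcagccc

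The stromal share of these genes ran in both directions, with Myl9 higher in stroma, Cnn2 lower and Myl6 not past the test. Of other motifs, CATTCC (12.6% of promoters) was in Cald1, Tpm1 and Tagln2, TGACTCA (4.46%) in Cald1 and Myl12a, TATAAA (12.4%) in Cald1, and GGGCGG (32.7%) in each gene except Cald1. A CArG box can hold TATAAA, but none of these 3 did. A match describes letters in a window and says nothing of binding.

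LMC-type and VSMC-type stroma were compared next, and Tpm2 differed most. Tpm2 stood at 1.09, 0, 0.585 and 0.730 CPM in LMC-type stroma of tdT1, tdT2, WT and TNF-Tg and at 43.9, 5.91, 9.71 and 17.4 in VSMC-type stroma, without overlap. The tdT2 values came from 0 and 3 UMIs. A floor of 3 UMIs in its LMC-type stroma is 5.97 CPM, so that library alone cannot separate the classes. Myl9 stood at 5.96, 3.98, 4.001 and 17.8 in the former and 43.2, 19.7, 5.45 and 22.6 in the latter, higher in VSMC-type stroma within each library but with overlapping ranges. Tpm1 stood at 48.6, 57.7, 53.2 and 77.5 against 87.1, 70.9, 55.1 and 96.4, also higher in each library and overlapping.

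Over 11893 genes, 22.1% differed between these classes (9.44% higher in LMC-type stroma and 12.7% lower, where 42.7% of calls were higher and 53.6% with library totals as the scaling), and of the 10 genes 3 were lower and 0 higher in LMC-type stroma. The log2 fold change was -4.71 for Tpm2 (SE 0.29, adjusted p = 3.09e-08), -1.30 for Myl9 (SE 0.34, adjusted p = 0.0120) and -0.46 for Tpm1 (SE 0.14, adjusted p = 0.0306). The Tpm2 call held under every alternative run, with adjusted p up to 0.0013. The other 2 calls were lost without tdT1 (Myl9 -0.63, adjusted p = 0.0723, and Tpm1 -0.32, adjusted p = 0.151), and without the library block (0.321 and 0.472). The other 7 genes lay between -0.28 and 0.15, none past the test. From the pathway lists, Ppp1r14a (-7.01), an inhibitor of myosin phosphatase, and Acta2 (-6.34) were the lowest and Zyx (2.08) and Des (2.90) the highest. The fold of Ppp1r14a depends on the prior count, since LMC-type stroma held 0 UMIs of it in every library. VSMC-type stroma held 10, 5, 6 and 10 UMIs of it in tdT1, tdT2, WT and TNF-Tg. In tdT1 all 300 UMIs of Acta2 in VSMC-type stroma came from 4 cells, described next. In tdT2, WT and TNF-Tg the VSMC-type stroma held 1, 2 and 21 UMIs of Acta2 and the LMC-type stroma 0, 6 and 6.

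Much of the VSMC-type level of tdT1 came from few cells. Cells with UMIs of at least 2 of Acta2, Myh11, Tagln and Cnn1, here called contractile cells, numbered 13 in library tdT1, 1 in library tdT2 and 5 in the WT library, and TNF-Tg had 0. The 5 of WT were macrophages and neutrophils by their markers and held 0 UMIs of Cald1 and Tpm2. The 13 of tdT1 held 4106 CPM of Acta2, 1751 of Tagln and 1185 of Myh11, and 4 of them were gated as VSMC-type, 1 as endothelial and 8 into no class.

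In the 13 cells the muscle isoforms were at another scale than in stroma. Tpm2 stood at 969 CPM (95% counting interval 809 to 1150), against 1.09 in LMC-type stroma of the same library, Tpm1 at 1095 (926 to 1287) against 48.6, Myl9 at 551 (433 to 692) against 5.96, and Cald1 at 1006 (843 to 1191) against 285.5. Tagln2, at 201 (133 to 293), stood beside 200.2 in LMC-type stroma, and its interval holds that value. The 4 contractile cells among 163 VSMC-type cells of tdT1 gave 84.3% of the Tpm2, 62.3% of the Myl9 and 37.4% of the Tpm1 UMIs of that class, and without them it stood at 7.07, 16.7 and 55.9 CPM.

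Contractile cells were left out in an alternative chosen after seeing the data. The log2 fold change of LMC-type against VSMC-type stroma was then -3.95 for Tpm2 (adjusted p = 1.6e-06), -0.85 for Myl9 (adjusted p = 0.016) and -0.30 for Tpm1 (adjusted p = 0.111), which no longer passed. The mural marker list (7 genes) summed to 89.6 to 139.8 CPM in VSMC-type and 32.1 to 83.5 in LMC-type stroma, and its part in these differences was not tested.

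**Figure D4:**
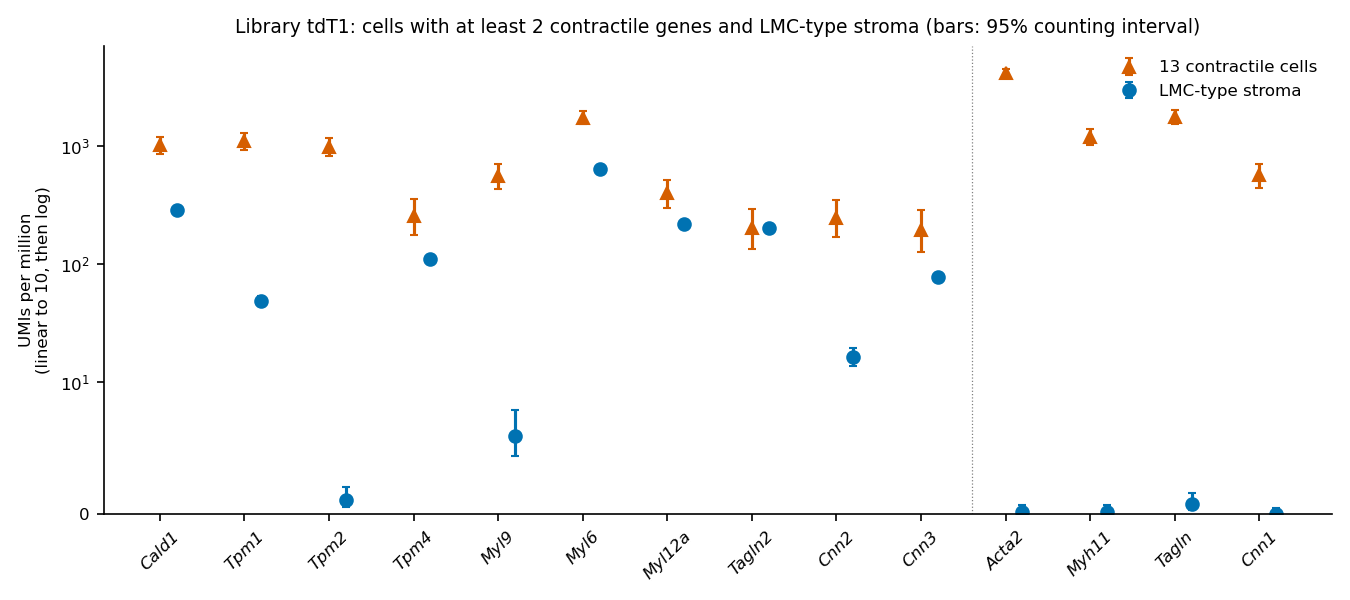
Levels in CPM (vertical axis, linear to 10 and logarithmic above) of the 10 genes and of 4 smooth muscle genes, right of the dotted line, in the 13 contractile cells (triangles) and the LMC-type stroma (circles) of tdT1, with 95% counting intervals. Tpm2, Myl9 and Tpm1 lie far above the stroma in the contractile cells, Tagln2 overlaps it, and Acta2, Myh11, Tagln and Cnn1 are near 0 in the stroma.

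Between TNF-Tg and WT, with 1 library each, no test was possible, and ratios are given with exact 95% intervals that cover counting error only. In the whole stroma 7 of the 10 genes were at least 1.5-fold higher in TNF-Tg and 0 were lower, where 11.7% of 11609 genes were higher and 19.7% lower. Between the tdT replicates 1 gene was that much higher (Myl9) and 1 lower (Cnn2) in tdT2, where 17.0% and 18.6% of genes were. The median log2 ratio was 0.63 for the 10 genes and -0.11 for all genes.

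The ratio of TNF-Tg over WT in stroma was 3.78 for Myl9 (3.06 to 4.68), 2.89 for Tpm2 (2.13 to 3.94), 1.88 for Cnn2 (1.65 to 2.15), 1.76 for Myl6 (1.73 to 1.79), 1.56 for Myl12a (1.51 to 1.62), 1.53 for Tpm1 (1.42 to 1.65) and 1.53 for Tpm4 (1.46 to 1.60). It was 1.34 for Tagln2 (1.29 to 1.40), 1.052 for Cnn3 (0.974 to 1.14) and 0.753 for Cald1 (0.722 to 0.785). Tpm2 was found mainly in VSMC-type cells, which were 567 of 2227 stromal cells in WT and 430 of 1114 in TNF-Tg. Within classes its ratio was 1.79 (1.26 to 2.56) in VSMC-type stroma, where classes from clusters turned the log2 ratio to -0.16, and 1.25 (0.348 to 3.73) in LMC-type stroma, from 5 and 13 UMIs. Cald1, the gene that set stroma apart from leukocytes best, was thus the only one of the 10 with a ratio under 1. Cnn3, the calponin higher in stroma than in leukocytes, was near 1. For Tpm1, Tpm2, Tpm4, Myl6, Myl12a, Tagln2 and Cnn2 the stromal level in TNF-Tg lay above the other 3 libraries, and for Cald1 below them. For Myl9 it did not, since tdT2 stood at 23.1 and WT was the low value. Of 11609 genes, 24.4% lay above the other 3 libraries in stroma and 38.2% below them. Tpm2 lay above by little, at 7.28 CPM against 7.13 in the next highest library.

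LMC-type stroma had 4 of 9 measurable genes at least 1.5-fold higher in TNF-Tg and 0 lower (11.1% and 13.6% of all genes were). With classes from clusters 2 members and 6.24% of genes were higher there, and the log2 ratio of Tpm4 turned from 0.77 to -0.046. In VSMC-type stroma 6 of 10 were higher and 0 lower (11.5% and 27.0% of all genes, the first 18.1% with TMM scaling). Stroma of neither type had 2 of 8 higher, Myl6 at 1.69 and Myl12a at 1.51, and 0 lower (13.1% and 22.6%). Between the tdT libraries, tdT2 had 0 of 9 higher and 1 lower in LMC-type stroma (16.4% and 22.6%). In VSMC-type stroma it had 0 of 9 higher and 3 lower (18.3% and 19.8%), the latter Tpm2, Myl9 and Cnn3. Without its 4 contractile cells, VSMC-type stroma of tdT1 stood at 7.07, 16.7 and 85.5 CPM for these genes, beside 5.91, 19.7 and 47.3 in tdT2. For TNF-Tg over WT, Myl9 had the largest ratio in LMC-type and in VSMC-type stroma, at 4.45 (3.36 to 5.92) and 4.14 (2.76 to 6.35). Myl6 stood at 1.73 and 1.79 there. In stroma of neither type Myl9 went the other way, at 0.636 (0.261 to 1.41). That value came from 9 UMIs in TNF-Tg and 25 in WT, too few to count among the measurable genes. Cnn2 stood at 2.21 in LMC-type and 1.61 in VSMC-type stroma. Of the nonmuscle actin, myosin and crosslinker list, 7 of 16 measured genes were at least 1.5-fold higher in LMC-type and 5 of 17 in VSMC-type stroma, Actb, Cfl1, Pfn1 and Tmsb10 among both.

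Leukocytes shared a part of this. Macrophages had 3 of 8 measurable genes at least 1.5-fold higher (13.8% of all genes) and 1 lower (15.8%). Myl12a stood at 1.70 (1.60 to 1.80), Tpm4 at 1.58 (1.48 to 1.69) and Myl6 at 1.54 (1.503 to 1.59), and the lower gene was Cald1, with 6 UMIs in TNF-Tg and 53 in WT. Its macrophage level was 0.539% and 0.783% of the stromal level there, within the range of the stromal reference genes (0% to 1.20% and 0.235% to 1.93%). No difference in expression can be read from a level in that range, and its source was not tested. In neutrophils 0 of 5 genes were higher (9.85%) and 1 was lower (21.0%), which was Tpm4 at 0.568 (0.483 to 0.667). Inflammatory monocytes had 1 of 6 genes higher, Tagln2 at 1.74 (1.59 to 1.91), and 0 lower (12.3% and 11.2% of all genes). Dendritic cells had 0 of 6 either way (16.2% and 18.7%), and T cells 0 higher and 1 lower of 6 (4.04% and 16.4%), which was Tpm4 at 0.584 (0.435 to 0.777). With classes from clusters the log2 ratio of Tpm4 in T cells turned to 0.15. Cnn2 stood at 1.88 in stroma and at 0.913 in macrophages (0.816 to 1.02), 0.731 in inflammatory monocytes (0.627 to 0.855), 0.788 in dendritic cells (0.693 to 0.896) and 0.770 in neutrophils (0.620 to 0.952).

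**Figure D5:**
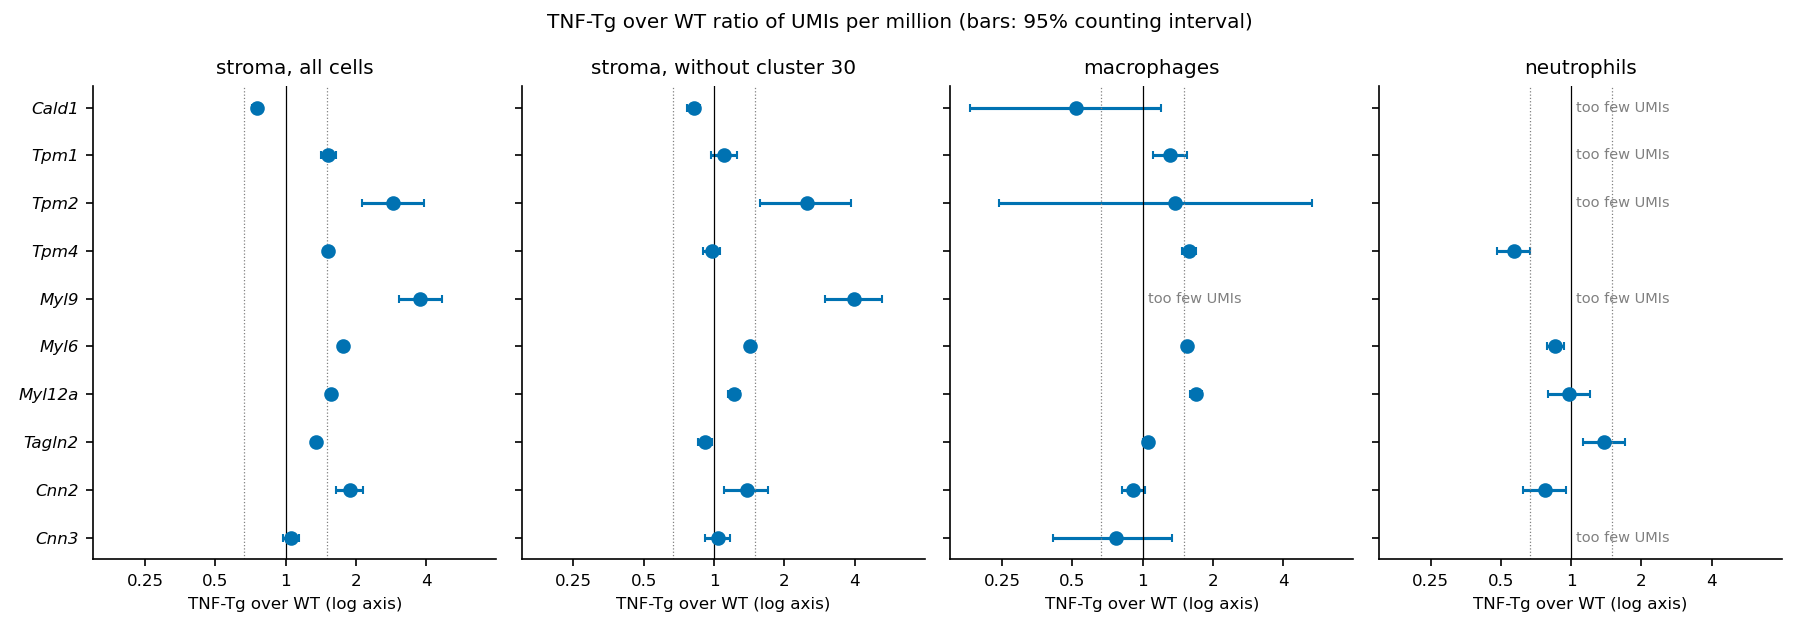
Ratio of TNF-Tg over WT in CPM (horizontal log axis, bars are 95% counting intervals, dotted lines 1.5-fold either way) for the 10 genes in 4 sets of cells, 1 library per condition. In all stroma 7 genes lie past the right dotted line, and without cluster 30, described in the text, 2 do, Myl9 and Tpm2.

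One group of stromal cells was present almost only in TNF-Tg. Clustering without the 10 genes and the pathway lists gave a cluster, number 30, of 648 cells of which 645 came from TNF-Tg and 3 from WT. By the gates it held 224 LMC-type and 297 VSMC-type cells of TNF-Tg. Its leading genes were Saa3 (348 CPM inside and 4.98 outside), Chl1, Ptx3, Mt2, Ccl2, Il33 and Ccl19, several of them acute-phase and chemokine genes. The median cell of the cluster held 13795 UMIs.

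Within TNF-Tg stroma, the 641 gated cells of the cluster and the 473 cells outside it differed most in Tpm4, Tagln2, Tpm1 and Cnn2, with no test. Tpm4 stood at 267 CPM inside and 144 outside, Tagln2 at 358 and 208, Tpm1 at 95.7 and 60.7, Cnn2 at 35.0 and 22.5, Myl12a at 422 and 295, and Myl6 at 1506 and 1109. Tpm2 stood at 7.79 and 6.28, Myl9 at 16.9 and 18.2, Cnn3 at 70.1 and 68.7, and Cald1 at 206 and 234. These are values of 1 library and were chosen after seeing the data.

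Without that cluster the ratios of TNF-Tg over WT in stroma separated the members. Tpm4 stood at 0.976 (0.898 to 1.06), Tagln2 at 0.913 (0.852 to 0.976) and Tpm1 at 1.11 (0.970 to 1.25). Myl9 stood at 3.96 (2.99 to 5.22). Tpm2 stood at 2.50 (1.57 to 3.86) in all stroma, at 2.16 (1.27 to 3.56) in VSMC-type stroma and at 0.574 (0.0135 to 3.82) in LMC-type stroma, the last from 1 UMI in TNF-Tg and 13 in WT. With classes from clusters, which do not leave these cells out, the VSMC-type log2 ratio of Tpm2 was -0.16. The largest gate in cluster 30 was VSMC-type, with 46.0% of its cells, so cluster classes do not split its cells as the gates do. The part of this in the ratio was not tested. Myl6 stood at 1.42 (1.38 to 1.47), Cnn2 at 1.38 (1.11 to 1.71), Myl12a at 1.22 (1.15 to 1.29) and Cald1 at 0.817 (0.767 to 0.871). The interval of Tpm4 and of Tpm1 held 1, and those of Myl9, Tpm2, Myl6, Cnn2 and Myl12a lay above it.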

How the data were processed

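Single-cell suspensions of pooled popliteal lymphatic vessels and saphenous veins were sequenced with a 3′ droplet kit, and the authors deposited raw UMI counts per gene and cell for each library, aligned to mm10. Per the file headers, tdT1 was counted with Cell Ranger 3.1.0 and the others with 6.0.1. The submitters' processing notes also name Seurat 4.0.3. The gene annotation was not given in the sources used here.

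Genes were matched on the 30406 identifiers shared by the libraries. Cells with at least 5 UMIs of lineage markers were called stroma at a stromal share of at least 0.9 and leukocytes at 0.1 or less. Cells between were left out as mixed (97, 1, 198 and 86 cells in tdT1, tdT2, WT and TNF-Tg), and no doublet caller was run. LMC-type and VSMC-type cells had a share of at least 0.7 or at most 0.3 of at least 5 UMIs of their markers, and leukocyte classes needed 3 markers. UMIs were summed per class and library and tested with edgeR 4.0.16 in R 4.3.3 (TMM scaling, filterByExpr, quasi-likelihood test, Benjamini-Hochberg adjustment over all genes, threshold 0.05). The library was the block, since both classes of a library came from the same 3 pooled mice. Deviations of the classes within a library correlated at 0.05 to 0.49 for stroma and leukocytes and at 0.28 to 0.65 for LMC-type and VSMC-type stroma. Intervals are exact, at 95%, and cover counting error only. The p-values measure the spread between 4 libraries, which hold 3 genotypes (2 reporter libraries, 1 WT and 1 TNF-Tg). TNF-Tg over WT used a 1.5-fold limit over genes with at least 50 UMIs in both libraries together.

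The members, gene lists and marker lists were chosen with earlier results of these data known. Named genes are the 10 members, 6 relatives (Acta2, Myh11, Tagln, Cnn1, Tpm3 and Myl12b), the 2 highest and 2 lowest pathway genes past each test, and the 3 genes closest to each member. Some items that this rule or the gene lists hold are not reported here. Alternatives were DESeq2 1.42.0, other scalings, filters, gates and clusters (scanpy 1.11.5), and each library left out. The testing code was tested on simulated data.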

Additional observations from a re-analysis of the deposited data

Results flagged for a closer look

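In some leukocyte classes a gene stood on the other side of 1 in TNF-Tg over WT than in both LMC-type and VSMC-type stroma, where it was above 1. For Cnn2 this held in inflammatory monocytes (0.731), dendritic cells (0.788) and neutrophils (0.770). For Tpm4 it held in neutrophils (0.568) and T cells (0.584, but above 1 with classes from clusters, at a log2 ratio of 0.15), for Tagln2 in T cells (0.798), for Myl6 in neutrophils (0.857) and for Tpm1 in dendritic cells (0.676). With 1 library per condition these differences were not tested.

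In tdT1, 8 cells that passed no class gate held UMIs of at least 2 of Acta2, Myh11, Tagln and Cnn1. They enter no comparison of classes. Tpm1 stood at 1151, Tpm2 at 905 and Myl9 at 375 CPM in these cells, above the stroma of the same library.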

How the results depend on the processing

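Of the log2 fold changes of members and relatives between classes, 448 kept their direction and side of the threshold under an alternative, 21 lost the call, 3 gained it and 20 changed sign, and the isoform shares kept their direction in 72 of 72, with no p under 0.125 possible. Other values were less stable. Of the member ratios of TNF-Tg over WT, 434 held, 66 moved in size and 11 changed direction. Of the shares of cells in which a gene was seen, 19 held and 61 moved. The cause was not tested where a value changed. Without the replicate block, the genes called numbered 6020, 3675 and 5813 for stroma against leukocytes, phagocytes and neutrophils, and 629 (2633 with it) for LMC-type against VSMC-type stroma, which gave 1568 to 2547 with 1 library left out, the lowest without WT, and 1644 with classes from clusters. Phagocyte calls numbered 7443 without the low-count filter (4942 with it). The percent of calls higher in stroma was 65.0 with DESeq2 and 65.7 with RLE scaling for phagocytes (50.5 in the reported fit), 75.4, 76.0 and, from clusters, 76.5 for neutrophils (64.7), and 53.6 higher in LMC-type stroma with library totals (42.7). Signs changed, on the log2 scale, for Tpm4 (0.18 with DESeq2, 0.19 with RLE) and Myl6 (0.015 and 0.014) against phagocytes. Against neutrophils they changed for Myl6 (0.012 from clusters), Myl12a (-0.14 with the quality filter, -0.10 to 0.50 with 1 library left out) and Tagln2 (-0.36 with the quality filter, -0.078 without the block, -0.27 to 0.32 with 1 library left out). Between LMC-type and VSMC-type stroma they changed for Tpm4 (-0.077 from clusters), Cnn2 (-0.013 with DESeq2, -0.070 from clusters, -0.089 to 0.097 with 1 library left out), Myl6 (-0.030 without the block, -0.092 to 0.23), Cald1 (-0.048 to 0.18) and Tagln2 (-0.25 to 0.12). None of these values passed the test in the reported fit.

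For TNF-Tg over WT, classes from clusters gave log2 ratios of -0.046 for Tpm4 and -0.17 for Tagln2 in LMC-type, -0.16 for Tpm2 in VSMC-type, -0.14 for Tpm1 in macrophages, 0.15 for Tpm4 in T cells and -0.53 for Tagln2 in mast cells, with 6.24% of genes higher in LMC-type stroma (11.1% by gates) and 2 members at least 1.5-fold higher there (4 by gates). Without cluster 30, chosen after seeing the data, Tpm4 was at -0.011 in LMC-type and -0.035 in all stroma, and Tagln2 at -0.098, -0.21 and -0.13 in LMC-type, VSMC-type and all stroma. The members at least 1.5-fold higher then numbered 2 (7 with it) in stroma, 1 (4) in LMC-type and 3 (6) in VSMC-type stroma. Classes from clusters and leaving out cluster 30 both change where its cells are counted, so they are not separate checks. TMM scaling gave 18.1% of genes higher in VSMC-type stroma (11.5%), and TMM, the mean over cells and classes from clusters each gave 1 member in neutrophils (0). At 1500 UMIs 6 members were in a larger share of stromal cells in tdT2 (5 at 3000 UMIs). WT and TNF-Tg had 1 library each, so no spread between mice was measured.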
